A study of Homo sapiens with 4 samples.

Results

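The genes described here are 10 sensors, adaptors and kinases through which a cell detects foreign or misplaced RNA and DNA. They were taken by symbol from a list, RIGI (formerly DDX58), IFIH1, DHX58, TLR3, MAVS, CGAS, IFI16, AIM2, STING1 and TBK1. All 10 were matched among the 58735 genes of the count table. RNA was sequenced from A549 cells, a line derived from a human lung adenocarcinoma and labelled as wild-type. The cells had been grown in serum-containing medium, stained with an antibody to the adhesion receptor ICAM1 and divided by flow sorting. The ICAM1-high and ICAM1-low subsets were represented by 2 libraries each. The labels name no further agent for either subset. Nothing in them tells separate cultures from repeat libraries of 1 culture, and the spread behind the p-values may therefore be only technical.

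In this system, RIGI, IFIH1 and DHX58 are related helicases of the cytosol that bind viral-type RNA, and TLR3 detects double-stranded RNA in endosomes. RIGI and IFIH1 signal through MAVS on mitochondria, whereas the enzyme CGAS answers DNA by making a cyclic dinucleotide that activates STING1 on the endoplasmic reticulum. Both routes meet at the kinase TBK1, which phosphorylates the transcription factor IRF3 and so switches on interferon genes. Airway and alveolar epithelial cells are known to use the RNA branch against respiratory viruses, and many of the sensors are themselves known to be induced by interferon.

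Library totals lay between 16272591 and 17638647 counts, which put 3 counts per library at 0.161 to 0.196 CPM (counts per 1e6 library counts, with libraries scaled by TMM). The sorting marker ICAM1 was counted 2153 and 2028 times in ICAM1-high libraries, against 72 and 75 times in ICAM1-low libraries. Both ICAM1-high libraries held transcripts of a chromosome 9 region that A549 is known to have lost on both copies. CDKN2A had 1009 and 1214 counts there, CDKN2B 174 and 182, and MTAP 459 and 463, against 0 and 0, 0 and 0, and 1 and 8 in ICAM1-low. At these genes the libraries labelled A549, ICAM1-high do not match what the named line is known to carry, and every difference below is one between libraries so labelled. No comparison without these libraries was possible, since they are the whole ICAM1-high group. Of all 16250 genes tested, 59.7% were called at a Benjamini-Hochberg adjusted p under 0.05 in edgeR's quasi-likelihood test, 30.4% as higher and 29.4% as lower in ICAM1-high. A call in itself was therefore common, and sizes carry more of the comparison than calls do.

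The promoters of the genes are shown first because several of them rose together and are known targets of interferon. RefSeq (GRCh38.p14) promoter windows of 300 bases, 250 before and 50 from the annotated start, were matched for 7 of the 10 genes, 8 windows in all, since IFI16 has 2. CGAS, DHX58 and STING1 had no entry. Both strands were searched for a pair of GAAA half-sites with any 2 bases between them, the core of the interferon-stimulated response element (ISRE), for the same half-sites with a 1-base spacer, GAAANGAAA, and for TTCNNNGAA, the gamma-activated sequence known from genes that answer interferon gamma. The 1-base spacing was added after these promoters had been seen, so its matches in them cannot be weighed against its share of all windows. Of all 35116 RefSeq windows of this length, 3.57% held the first pattern, 3.12% the second and 7.66% the third. The 5 windows with a match to the first or second pattern are given 5′ to 3′ on the gene's strand, cut to 270 bases, with these matches in capitals.
RIGI, chr9:32526177-32526446, minus strand: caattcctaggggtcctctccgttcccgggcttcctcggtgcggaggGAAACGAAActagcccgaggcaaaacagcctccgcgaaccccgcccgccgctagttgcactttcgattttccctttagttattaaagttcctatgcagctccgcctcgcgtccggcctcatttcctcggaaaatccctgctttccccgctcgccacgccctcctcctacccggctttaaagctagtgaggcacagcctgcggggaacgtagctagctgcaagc
IFIH1, chr2:162318665-162318934, minus strand: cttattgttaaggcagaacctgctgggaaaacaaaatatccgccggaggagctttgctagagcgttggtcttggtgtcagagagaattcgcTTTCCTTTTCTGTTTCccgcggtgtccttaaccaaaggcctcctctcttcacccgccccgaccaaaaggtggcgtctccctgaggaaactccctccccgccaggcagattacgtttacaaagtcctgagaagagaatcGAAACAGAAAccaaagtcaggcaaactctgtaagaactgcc
TLR3, chr4:186068906-186069175, plus strand: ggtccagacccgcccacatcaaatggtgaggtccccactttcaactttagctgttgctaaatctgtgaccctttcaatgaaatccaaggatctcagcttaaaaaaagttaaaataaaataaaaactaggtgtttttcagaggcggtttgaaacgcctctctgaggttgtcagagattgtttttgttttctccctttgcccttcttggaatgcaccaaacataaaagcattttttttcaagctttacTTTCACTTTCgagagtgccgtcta
IFI16, second start, chr1:159009657-159009926, plus strand: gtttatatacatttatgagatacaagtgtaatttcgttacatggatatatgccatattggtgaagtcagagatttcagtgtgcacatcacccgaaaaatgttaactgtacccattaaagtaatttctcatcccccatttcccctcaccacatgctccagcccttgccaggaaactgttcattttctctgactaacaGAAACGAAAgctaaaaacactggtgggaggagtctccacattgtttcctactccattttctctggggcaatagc
AIM2, chr1:159076747-159077016, minus strand: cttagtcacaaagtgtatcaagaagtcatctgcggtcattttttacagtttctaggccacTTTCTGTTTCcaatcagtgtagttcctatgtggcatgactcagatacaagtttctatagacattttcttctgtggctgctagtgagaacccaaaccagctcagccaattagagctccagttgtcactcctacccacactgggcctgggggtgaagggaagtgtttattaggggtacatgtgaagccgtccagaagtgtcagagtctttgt
The ISRE core occurred in IFIH1, TLR3 and AIM2. IFIH1 held 3 matches, of which a pair on the opposite strand overlap each other and the third, GAAACAGAAA, begins 21 bases before the start. In TLR3 the match spans the start itself, and 2 gamma-activated sequences lie further upstream. RIGI and the second start of IFI16 shared the same 9 letters, GAAACGAAA, at the 1-base spacing. MAVS, TBK1 and the first start of IFI16 held none of the 3 patterns in these windows. A match is a description of letters and not evidence of binding, and AIM2, which has one, was at the limit of detection in every library.

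**Figure D1:**
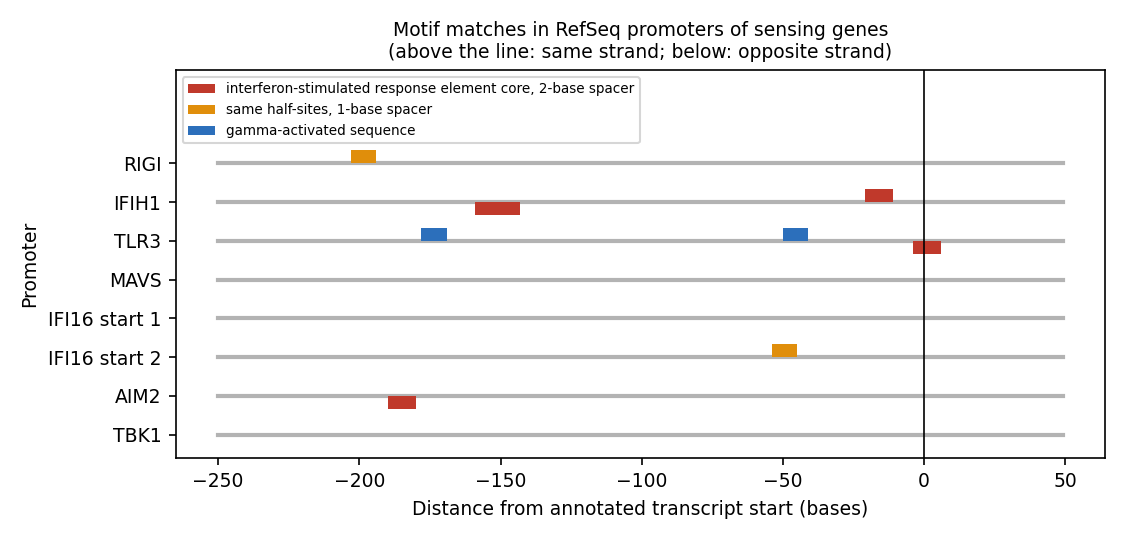
Motif matches in the 8 RefSeq promoter windows of 7 sensing genes, drawn by distance in bases from the annotated transcript start. Bars above a line are matches on the gene's strand and bars below it are matches on the opposite strand, and IFIH1 carries 3 ISRE cores, of which the overlapping pair is drawn as 1 joined bar.

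Of the 10 genes, 9 were abundant enough to test. In ICAM1-high, 7 were called higher (RIGI, IFIH1, DHX58, TLR3, MAVS, IFI16 and STING1) and 2 lower (CGAS and TBK1), beside 30.4% and 29.4% of all genes. Their log2 fold changes, given throughout as ICAM1-high minus ICAM1-low, ran from -0.34 to 6.34 with a median of 1.35, beside a median of 0.01 over all genes tested. In all 9 the libraries of the 2 subsets did not overlap, 7 with both ICAM1-high libraries above and 2 with both below, beside 40.1% and 38.3% of all genes. A rise of at least 2-fold was called in 6 of them and of at least 4-fold in 3 (TLR3, IFI16 and STING1), beside 10.8% and 4.57% of all genes. STING1 was tested only because of its ICAM1-high counts, so that its direction in each of these counts was fixed. The genes were chosen with results of these data known, so these counts describe them and do not support a statement about them as a group. With scaling by library size alone, which raised the median of all genes by 0.17 on the log2 scale, 7 were higher and 0 lower. That scaling also moved the higher share of all calls from 50.8% to 68.3%. In bulk RNA, a larger share of cells that use a gene and more RNA per cell cannot be told apart.

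**Figure D2:**
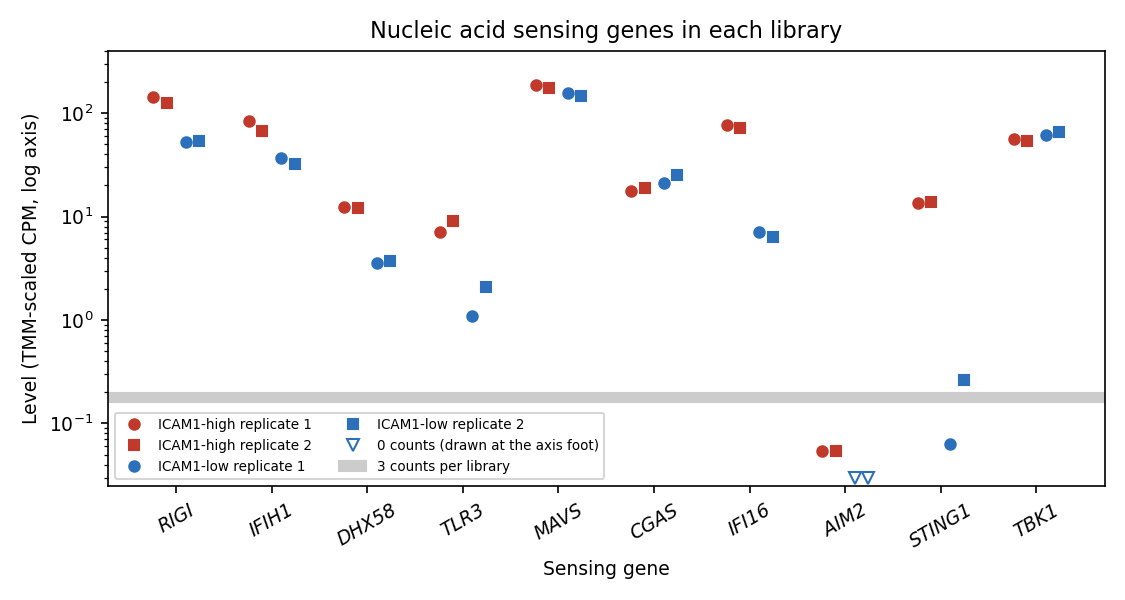
Level of each of the 10 sensing genes in each of the 4 libraries, in TMM-scaled CPM on a log axis, with the level of 3 counts as a grey band and open triangles for 0 counts. STING1 falls from about 13.6 to at most 0.261 CPM between subsets, IFI16 stands apart by a wide gap, and the libraries of MAVS, CGAS and TBK1 lie close together.

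The RNA sensors rose in ICAM1-high. RIGI (ENSG00000107201, chromosome 9, 32455705 to 32526324, GRCh38), which binds short RNA ends bearing triphosphates, was at 144 and 125 CPM in the ICAM1-high libraries and 52.6 and 53.3 CPM in the ICAM1-low libraries. The 2 subsets did not overlap, and the ICAM1-low libraries were nearly equal. It rose 2.55-fold (log2 fold change 1.35, standard error, SE, 0.06, edgeR adjusted p = 2.25e-28). IFIH1 (ENSG00000115267, chromosome 2, 162267079 to 162318703), also called MDA5, binds long double-stranded RNA. It was at 84.5 and 66.5 CPM against 37.1 and 32.3 CPM, with the first replicate the higher of the pair in each subset and no overlap between subsets. It rose 2.17-fold (log2 fold change 1.12, SE 0.10, edgeR adjusted p = 1.17e-08).

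DHX58 (ENSG00000108771, chromosome 17, 42101404 to 42112733), or LGP2, is the helicase of this family that lacks the signalling domains of the other two and modulates them. Its levels were 12.4 and 12.0 CPM in ICAM1-high and 3.52 and 3.72 CPM in ICAM1-low. Libraries of one subset were close, and the rise was 3.37-fold (log2 fold change 1.75, SE 0.17, edgeR adjusted p = 2.28e-14). TLR3 (ENSG00000164342, chromosome 4, 186069152 to 186088069) was the least abundant RNA sensor, at 7.03 and 8.98 CPM against 1.09 and 2.09 CPM. These ICAM1-low values rest on 17 and 32 counts, and replicate 2 was the higher library in both subsets. The log2 fold change was 2.33 (SE 0.24, edgeR adjusted p = 5.13e-13), and it stayed between 1.93 and 2.86 over 12 alternative settings.

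MAVS (ENSG00000088888, chromosome 20, 3846799 to 3876123), the mitochondrial adaptor that RIGI and IFIH1 share, rose by less than its sensors in these values, although the difference between genes was not tested. It was at 188 and 176 CPM in ICAM1-high and 155 and 147 CPM in ICAM1-low, so that the lowest ICAM1-high library stood just above the highest ICAM1-low library. The rise was 1.20-fold (log2 fold change 0.27, SE 0.05, edgeR adjusted p = 3.42e-06) and was called under each of the 12 alternatives. Its log2 fold change was lowest, at 0.21, with a single library left out. Scaling by library size alone, which shifted all genes upward, gave the highest value, 0.44.

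Among the DNA sensors, IFI16 was called higher and CGAS lower, the latter under most but not all settings. IFI16 (ENSG00000163565, chromosome 1, 158999968 to 159055155), a nuclear and cytosolic DNA-binding protein of the PYHIN family, was at 77.0 and 72.2 CPM in ICAM1-high and 7.04 and 6.32 CPM in ICAM1-low. The gap between subsets was many times the gap between libraries, with a log2 fold change of 3.48 (SE 0.10, edgeR adjusted p = 2.1e-42). That places it at the 97.8th percentile of the fold changes of all genes tested. AIM2 (ENSG00000163568, chromosome 1, 159062484 to 159147096), the inflammasome sensor and IFI16's neighbour in the same gene cluster, had 1 count in each ICAM1-high library and 0 in each ICAM1-low library. It was not tested, and no difference was detectable at this depth. The other PYHIN genes of the cluster, named after their values were seen, were as scarce, with 2 and 0 counts over the subsets for MNDA and 0 and 1 for PYHIN1.

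CGAS (ENSG00000164430, chromosome 6, 73413515 to 73452276), the cyclic GMP-AMP synthase, was at 17.7 and 18.8 CPM in ICAM1-high and 21.0 and 25.4 CPM in ICAM1-low. The ICAM1-low libraries were both higher but also lay further apart. The gene fell by 0.34 on the log2 scale (SE 0.10, edgeR adjusted p = 0.00333). This call was lost with scaling by library size alone (log2 fold change -0.17, edgeR adjusted p = 0.153) and without ICAM1-low replicate 2 (-0.21, edgeR adjusted p = 0.183). An opposite-strand gene, DDX43, shares 4.33% of the exon bases of CGAS, and the strand setting of the counting is not given in the sources used here.

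STING1 (ENSG00000184584, chromosome 5, 139475534 to 139482935), the adaptor on which CGAS acts, showed the widest difference of the 9 genes tested. It had 252 and 253 counts in the ICAM1-high libraries, 13.5 and 13.8 CPM, and 1 and 4 counts in the ICAM1-low libraries, 0.0640 and 0.261 CPM. The ICAM1-high libraries were nearly equal, while in ICAM1-low the gene was near the level of 3 counts. Over the summed counts, 505 against 5, the ratio was 84.5 with a 95% exact binomial interval of 36.0 to 262, which covers counting error only. The fitted log2 fold change was 6.34 (SE 0.32, edgeR adjusted p = 6.17e-28), 5.66 without ICAM1-low replicate 1 and 7.58 without ICAM1-low replicate 2. Only its ICAM1-high counts took STING1 past the filter on low counts, so that the direction followed from its being tested at all.

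TBK1 (ENSG00000183735, chromosome 12, 64451880 to 64502108), the kinase on which the RNA and DNA branches converge, was at 56.7 and 53.3 CPM in ICAM1-high and 61.8 and 65.3 CPM in ICAM1-low. The subsets did not overlap but were close. It fell by 0.21 on the log2 scale (SE 0.07, edgeR adjusted p = 0.00513), a call lost with scaling by library size alone (-0.04, edgeR adjusted p = 0.658) and without ICAM1-low replicate 2 (-0.18, edgeR adjusted p = 0.104). An antisense gene shares 14.7% of its exon bases.

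**Figure D3:**
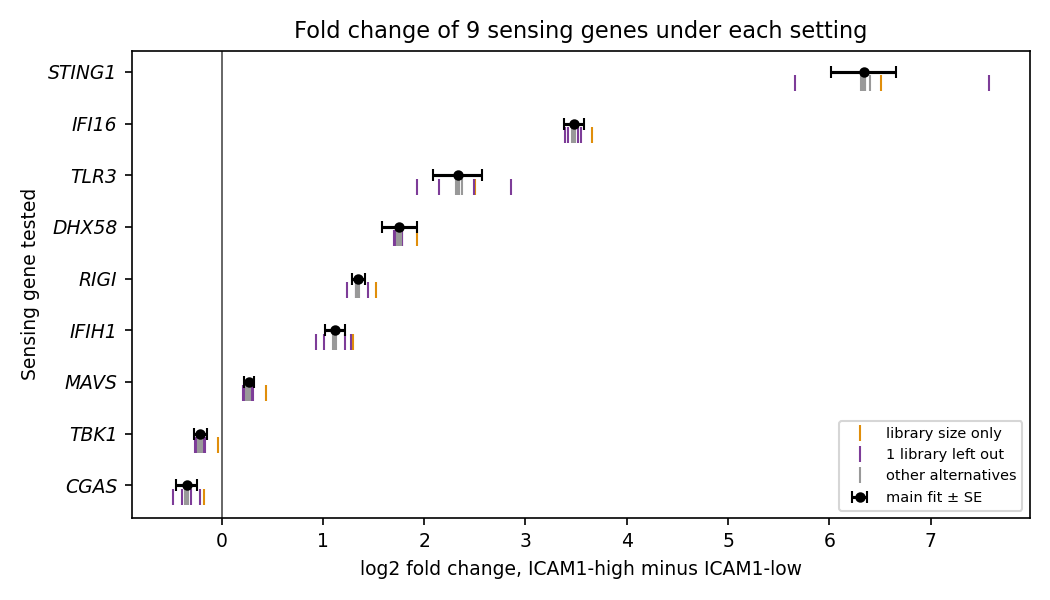
Log2 fold change (ICAM1-high minus ICAM1-low) of the 9 sensing genes tested, with the standard error as a bar on the main value and a tick for each alternative scaling, filter, tool or left-out library. STING1 spreads from 5.66 to 7.58 when single ICAM1-low libraries are left out, and TBK1 comes within 0.04 of zero with scaling by library size alone.

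Levels of different genes can be compared only per length, here as CPM per kilobase of annotated exon. In ICAM1-high, RIGI was the most abundant of the 10 at 31.0 ± 3.03 CPM per kb (SD, n = 2). MAVS (15.4 ± 0.745), IFIH1 (14.8 ± 2.48) and IFI16 (14.1 ± 0.654 CPM per kb) followed, with ranges that overlapped between neighbours. TBK1 came next at 11.5 ± 0.505, then CGAS at 4.40 ± 0.193, STING1 at 3.55 ± 0.0470, DHX58 at 3.18 ± 0.0861, TLR3 at 1.19 ± 0.206 and AIM2 at 0.0269 CPM per kb.

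In ICAM1-low the order was headed by TBK1 (13.3 ± 0.527 CPM per kb; SD, n = 2) and MAVS (12.8 ± 0.493), whose ranges overlapped, and RIGI (12.2 ± 0.113). IFIH1 stood at 6.80 ± 0.658, CGAS at 5.58 ± 0.735, IFI16 at 1.26 ± 0.0950, DHX58 at 0.941 ± 0.0366, TLR3 at 0.236 ± 0.105 and STING1 at 0.0422 ± 0.0362 CPM per kb, and AIM2 was at 0 counts. The adaptor and the kinase therefore led the sensors in ICAM1-low, and RIGI led them in ICAM1-high. With the longest coding transcript as the length, the ICAM1-low order was the same. In ICAM1-high it put IFI16 (26.0 CPM per kb), IFIH1 (21.0) and TBK1 (16.9) above MAVS (15.5), and STING1 (7.71) above CGAS (5.74).

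**Figure D4:**
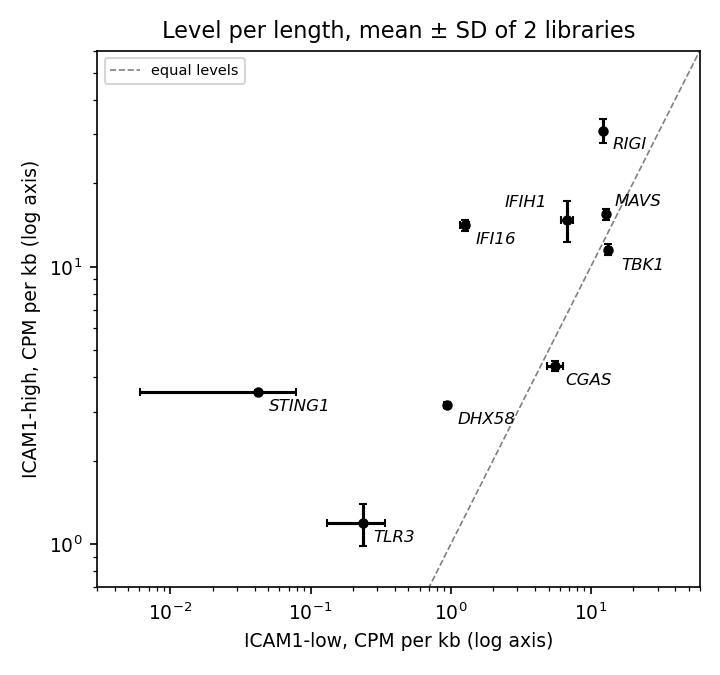
Mean level per kilobase of exon in ICAM1-low (horizontal) and ICAM1-high (vertical), both in CPM per kb on log axes of different span, with SD over 2 libraries as bars and a dashed line of equal levels, for the 9 sensing genes counted in both subsets. MAVS, CGAS and TBK1 lie near the line, whereas STING1, at 0.0422 against 3.55 CPM per kb, lies farthest from it.

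The rest of the pathway was read from 7 lists with 113 genes, of which 103 were tested. In ICAM1-high 52 were called higher and 27 lower, 50.5% and 26.2% beside 30.4% and 29.4% of all genes. With scaling by library size alone these were 63 and 15, beside 6735 and 3124 of all 16250 genes. Of the 103, CASP1 and RNASEH2A, a subunit of RNase H2 named after its values were seen, were tested only because of their ICAM1-high counts. Of 13 other nucleic acid sensors tested among 20 listed, 11 were higher and 2 lower (84.6% and 15.4%), with a median log2 fold change of 0.58 beside 0.01 for all genes. OAS2, which makes the 2-5A messenger that activates RNase L, was at 50.6 ± 2.61 CPM (SD, n = 2) against 11.6 ± 0.527 CPM (a log2 change of 2.13, SE 0.09). OASL, a relative that binds RIGI, rose by 1.48 (SE 0.05) to 447 ± 30.1 CPM, and OAS3 by 1.22 (SE 0.05). The opposite direction was taken by LRRFIP1, at 147 ± 3.43 against 350 ± 4.21 CPM (-1.25, SE 0.04), and by PRKDC, the catalytic subunit of DNA-dependent protein kinase (-0.52, SE 0.04). TLR7 and TLR8, named after their values were seen, had 0 counts in every library.

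All 22 signalling partners of the adaptors were tested. Of these 7 were higher and 6 lower, 31.8% and 27.3%, which is near the 30.4% and 29.4% of all genes, and the median was 0.03. TRAF2, a ubiquitin ligase adaptor, was at 53.7 ± 2.36 against 104 ± 8.86 CPM (a log2 change of -0.96, SE 0.06). TANK, a scaffold of TBK1, fell by 0.81 (SE 0.07), and IKBKB, a kinase that activates NF-kB, by 0.61 (SE 0.06). CASP1, the inflammasome protease, had 131 and 161 counts in ICAM1-high against 5 and 4 in ICAM1-low (4.73, SE 0.33), and it too was tested only because of its ICAM1-high counts. IKBKE, the kinase most like TBK1, named after its values were seen, was at 21.4 against 13.0 CPM and rose by 0.72, while TBK1 itself fell by 0.21; the difference between these kinases was not tested.

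Among 13 positive regulators of the sensors 5 were higher and 4 lower (38.5% and 30.8%, beside 30.4% and 29.4% of all genes; median -0.01). TRIM25, a ubiquitin ligase known to act on RIGI, was at 138 ± 1.56 against 256 ± 2.57 CPM and fell by 0.89 (SE 0.05), in the libraries in which RIGI rose by 1.35. ZCCHC3, a co-sensor of RNA and DNA, fell by 0.41 (SE 0.09). NONO (0.50, SE 0.04), PQBP1 (0.47, SE 0.07) and the phosphatase gene PPP1CC (0.44, SE 0.05) rose. Library-size scaling turned these counts to 8 and 2, beside 6735 and 3124 of all 16250 genes. Among 14 negative regulators 4 were higher and 6 lower (28.6% and 42.9%, beside 30.4% and 29.4% of all genes; median -0.07). With library-size scaling 6 were higher and 3 lower, so which direction held more calls depended on the scaling. RNF125, a ubiquitin ligase that marks RIGI for degradation, was at 8.78 ± 0.130 against 2.36 ± 0.534 CPM (1.89, SE 0.21). NLRC5 rose by 1.93 (SE 0.12) and TNFAIP3, which encodes the deubiquitinase A20, by 0.56 (SE 0.06), whereas TAX1BP1, an adaptor of A20, fell by 0.80 (SE 0.05).

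Nucleases and RNA editing enzymes keep the cell's own nucleic acids from being sensed. Of 17 listed, 15 were tested, 8 were higher and 4 lower (53.3% and 26.7%, beside 30.4% and 29.4% of all genes), with a median of 0.28. DESeq2 called 5 higher and 1 lower, beside 3785 and 3774 of all 16250 genes. Library-size scaling gave 9 and 1, beside 6735 and 3124 of all genes. SAMHD1, which degrades dNTPs, was at 39.2 ± 2.72 against 12.5 ± 0.0132 CPM (a log2 change of 1.65, SE 0.10), and SKIC2, a helicase of the RNA exosome pathway, rose by 1.10 (SE 0.07). RNASEH2C, a subunit of RNase H2, rose by 0.79 (SE 0.11) and the editing enzyme gene ADAR by 0.47 (SE 0.04). KAT5, an opposite-strand gene, shares 28.2% of the exon bases of RNASEH2C. RNASEH2B fell by 0.57 (SE 0.12), a call lost in DESeq2 (adjusted p = 0.0752), and PLD3 by 0.25 (SE 0.04), a call lost with library-size scaling (edgeR adjusted p = 0.131). TREX1, the main cytosolic DNA exonuclease, named after its values were seen, was listed at 0 in all 4 libraries. All of its exon bases are shared with ATRIP, so this value says nothing of its level.

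Of 9 transcription factors downstream, 4 were higher and 4 lower (44.4% each, beside 30.4% and 29.4% of all genes; median 0.45). With library-size scaling 4 were higher and 1 lower, beside 6735 and 3124 of all 16250 genes. IRF7, an amplifier of interferon induction, was at 25.5 ± 1.07 against 6.42 ± 0.324 CPM (a log2 change of 1.99, SE 0.12), and STAT2, which carries the type I interferon response, rose by 1.07 (SE 0.08). IRF3, the direct substrate of TBK1, was at 64.6 ± 2.85 against 77.9 ± 1.70 CPM and fell by 0.27 (SE 0.06), a call lost with library-size scaling (edgeR adjusted p = 0.178). BCL2L12, an opposite-strand gene, shares 19.35% of the exon bases of IRF3. NFKB1 fell by 0.65 (SE 0.07).

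Of 17 output genes of the pathway tested, 13 were higher and 1 lower (76.5% and 5.88%, beside 30.4% and 29.4% of all genes), with a median of 1.22. MX1, an antiviral GTPase, was at 45.8 ± 3.27 against 2.84 ± 0.509 CPM (a log2 change of 4.01, SE 0.13). The ubiquitin-like modifier gene ISG15 rose by 2.12 (SE 0.06), the cytokine gene IL6 by 1.83 (SE 0.09) and IFIT1, which binds foreign RNA caps, by 1.78 (SE 0.05). Opposite-strand genes share 20.7% of the exon bases of IL6. IL18, a cytokine cut by caspase 1, fell by 1.25 (SE 0.07). IFNB1, the interferon gene that TBK1 and IRF3 switch on most directly, was at 4.51 and 4.41 CPM in ICAM1-high and 3.77 and 3.26 CPM in ICAM1-low. The ICAM1-high libraries were the higher ones, but the gene did not pass the test (log2 fold change 0.34, SE 0.22, edgeR adjusted p = 0.185), although it did with scaling by library size alone (0.51, edgeR adjusted p = 0.0405).

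**Figure D5:**
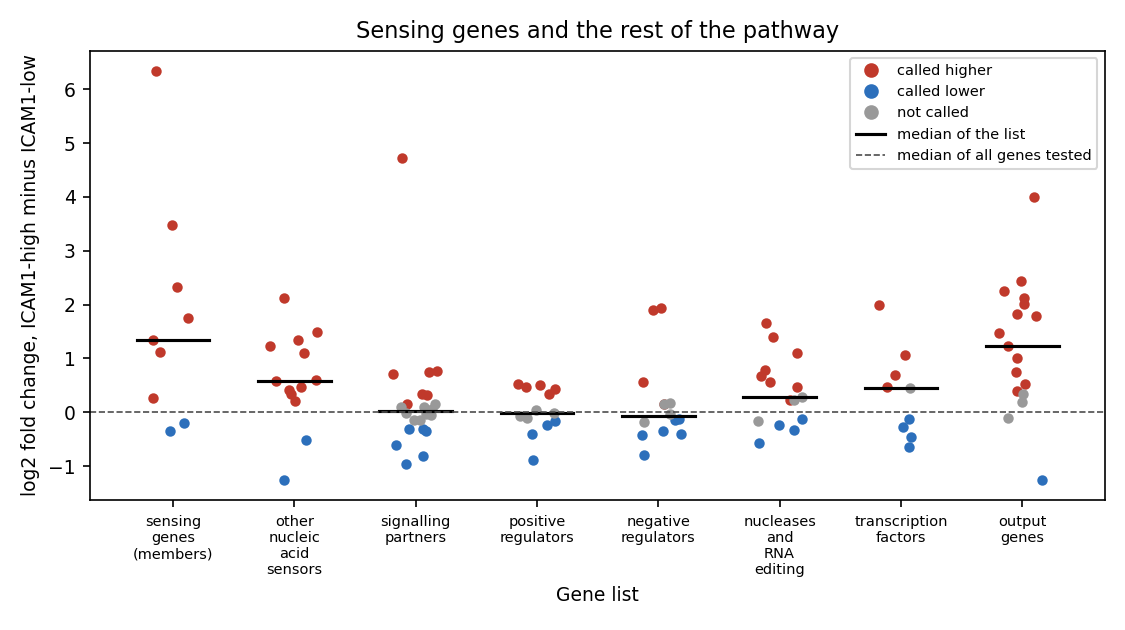
Log2 fold change (ICAM1-high minus ICAM1-low) of each tested gene in the sensing set and in 7 pathway lists, coloured by call, with a bar at each list's median and a dashed line at the median of all genes tested. The sensing genes and the output genes have medians of 1.35 and 1.22, and the medians of signalling partners and of positive and negative regulators lie within 0.08 of zero.

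The gene of these lists most alike to each tested member was found by the smallest distance between log2 levels centred on each gene's mean, over 4 libraries and among 111 tested candidates. For RIGI it was DDX60 (log2 fold change 1.34; distance 0.0414), for IFIH1 RSAD2 (1.22; 0.142), for DHX58 SAMHD1 (1.65; 0.0811) and for TLR3 NLRC5 (1.93; 0.401). MAVS lay closest to DHX36 (0.21), TBK1 to ITCH (-0.15) and CGAS to DNASE1 (-0.33). STING1 (6.34) had no close match, with MX1 nearest (4.01; 0.832), and IFI16 (3.48) was nearest to CASP1 (4.73; 0.280). The mean of CASP1 in ICAM1-low, 0.290 CPM, lies below the 0.5 added before logs were taken. Its difference between subsets is therefore narrowed in this measure, and so is that of STING1, at 0.162 CPM. The 4 libraries fall in 2 subsets, which leaves the measure few independent points.

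Markers of other cell types that use these sensors were read in the same libraries, and their calls stand beside 30.4% higher and 29.4% lower among all genes. The leukocyte list of 14 markers summed to 25.8 to 27.3 CPM in ICAM1-high and 18.9 to 20.02 CPM in ICAM1-low. Of its 3 markers tested, CD14, a co-receptor of monocytes, was higher with 343 and 343 against 146 and 146 counts, and the integrin gene ITGAM was lower with 128 and 103 against 133 and 140. CD74 was called higher on 38 against 11 counts in all, but it was tested only because of its ICAM1-high counts. PTPRC, CD3E, CD3D and MS4A1, which define leukocytes and their T and B lineages, had 0 counts in all 4 libraries.

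The endothelial list of 14 markers summed to 52.3 to 57.0 against 37.1 to 40.4 CPM, with 4 of 6 tested markers called higher and 1, ESAM, lower (118 against 148 counts in all). EGFL7, the most abundant of the list, was at 25.8 against 29.4 CPM and was not called (log2 fold change -0.18). Of the 4 called higher, ENG had 630 against 108 counts in all and PECAM1 133 against 26. The others, ERG with 37 and 52 against 0 and 0 counts and CDH5 with 37 and 27 against 0 and 1, were tested only because of their ICAM1-high counts, which fixed their direction. VWF, untested, had 5 counts in 1 ICAM1-high library and 0 in the others.

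The fibroblast list of 14 markers summed to 78.1 to 89.4 against 47.5 to 50.4 CPM, with 5 of 7 tested markers called higher and 0 lower. COL1A1 had 505 and 551 against 60 and 66 counts. FBLN1, the most abundant of the list at 48.8 against 42.9 CPM, was higher by 0.19 on the log2 scale. PDGFRA, with 21 against 18 counts in all, was not called. LUM with 99 against 8 counts in all, FAP with 42 against 1 and PDGFRB with 26 against 5 were also called higher, but these 3, like THY1, which was not called, were tested only because of their ICAM1-high counts. COL1A2, COL3A1 and DCN had at most 2 counts over a subset, and POSTN and DPT had 0. The part of the leukocyte, endothelial and fibroblast markers in the values of the sensing genes was not tested.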

How the data were processed

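RNA was extracted with Trizol and made into SMARTer mRNA libraries per the labels' protocols. The authors deposited 1 table of raw counts, with genes in rows and libraries in columns. FastQC 0.10.1 and build GRCh38 are named per the submitters' processing notes, and which aligner, counter and strand setting were used is not given in the sources used here. All 58735 gene identifiers were in GENCODE 29, which gave positions and exon lengths. The gene name table gave symbols for 58207 of them.

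Subsets were compared with edgeR 4.0.16 (R 4.3.3) on the deposited counts by the robust quasi-likelihood test, with TMM scaling and the default expression filter (minimum count 10, minimum total 15). SE is the log2 fold change divided by the square root of the test's F. Fold changes are ICAM1-high over ICAM1-low, and calls use an adjusted p under 0.05 over 16250 genes. Likeness was computed on log2 (CPM + 0.5). The fit was first tested on simulated counts, in which a small set of genes was changed equally up and down and all genes shared 1 dispersion. Far more genes differ in the data, so that simulation cannot say how well the scaling works here. Members and lists were chosen with earlier results of these data known. Beside the 10 members, the naming rule took from each list up to 4 called genes by smallest adjusted p, up to 2 called in the opposite direction, IFNB1 and the label checks ICAM1, CDKN2A, CDKN2B and MTAP. A gene that this rule takes from the transcription factors is not reported here. Alternatives were other scalings, filters, DESeq2 1.42.0, limma-voom (limma 3.58.1), an adjusted p under 0.01, a replicate block and omission of each library in turn. Libraries of a subset differed by more than sampling noise (chi-square per degree of freedom 3.07 and 1.86).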

Additional observations from a re-analysis of the deposited data

How the results depend on the processing

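Calls of RIGI, IFIH1, DHX58, TLR3, MAVS, IFI16 and STING1 held under all 12 alternatives, so that 7 members were higher in each. The count of members called lower, 2 as reported, was 0 with scaling by library size alone in edgeR, also at an unadjusted p under 0.05. DESeq2 with its own size factors and limma-voom with TMM scaling each called 2, and neither was run with library size alone. When single libraries were left out, the calls of CGAS and TBK1 were lost without ICAM1-low replicate 2 and kept otherwise. With library size alone, 3124 genes in all and 15 pathway genes were lower, in place of 4771 and 27. Over 48 named genes and 12 alternatives, 568 of 576 values kept their direction and side of the threshold, 7 lost their call, 1 gained one and 0 changed sign. Most of these named genes were taken for the smallest adjusted p of their list, so that their calls were likely to hold. The stricter threshold reuses the main fit and cannot change a direction. The tally therefore says little of how firm an average call is. With the replicate number as a block, 7 members were higher and 2 lower, and 4976 and 4836 genes in all. The numbers share only a name, since deviations of same-numbered libraries correlated at 0.04 and 2 pairs cannot settle a pairing. Leaving out a library leaves its partner alone, and the fit then takes the other subset's spread for both. Depth limits AIM2, and STING1 and TLR3 in ICAM1-low, which rest on 5 and 49 counts in all. STING1 passed the main filter only through its ICAM1-high counts, which fixed its direction among the members called higher.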

Other observations

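Type III interferon genes, which airway epithelium is known to favour, were counted in both subsets and were named after their values were seen. IFNL1 was at 38.4 and 37.2 CPM in ICAM1-high and at 26.1 CPM in both ICAM1-low libraries, a log2 fold change of 0.53 (SE 0.08, edgeR adjusted p = 1.2e-07). IFNL2 was at 13.5 ± 2.23 against 14.5 ± 1.36 CPM (SD, n = 2) and IFNL3 at 12.2 ± 0.140 against 10.8 ± 0.127 CPM. Neither passed the test, and reads of these near-identical copies may be split between them. The chemokine genes CXCL10 and CXCL11 were likewise named after their values were seen. They rose by 2.26 (SE 0.20) and 2.43 (SE 0.19) on the log2 scale. Their counts were 69 and 75 over the ICAM1-low libraries and 395 and 485 over the ICAM1-high libraries. CXCL9, of the same output list, had 2 counts over the ICAM1-low and 0 over the ICAM1-high libraries and was not tested.

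Genes of the AIM2 inflammasome were also named after their values were seen and are given as values. AIM2 had 2 counts in all, and the protease gene CASP1 had 292 counts over the ICAM1-high and 9 over the ICAM1-low libraries (log2 fold change 4.73). CASP1 was tested only because of its ICAM1-high counts, which fixed its direction. The adaptor PYCARD was at 2.46 ± 0.242 against 2.51 ± 0.788 CPM (SD, n = 2; log2 fold change -0.03, SE 0.28), with 59.7% of its exon bases shared with an antisense gene. The pore-forming gasdermin gene GSDMD rose by 0.40 (SE 0.10, edgeR adjusted p = 0.000498), from 20.6 ± 2.70 to 27.1 ± 2.77 CPM. In the opposite direction, the caspase 1 substrate gene IL18, already named above, fell by 1.25 (SE 0.07), from 82.1 ± 0.934 to 34.4 ± 0.328 CPM. IL1B rose by 0.75 (SE 0.31, edgeR adjusted p = 0.0288), from 23 and 28 counts in the ICAM1-low libraries to 65 and 38 in the ICAM1-high libraries. The second ICAM1-high library, at 2.07 CPM, was close to the ICAM1-low libraries, at 1.47 and 1.83 CPM. The call was not kept at an adjusted p under 0.01.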
